A study of Homo sapiens with 4 samples.

Results

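The genes described here encode enzymes and cofactors that modify bases and riboses of transfer RNA (tRNA), other than the proteins that carry a THUMP domain. Transcripts of 60 such genes were looked up by gene symbol in a table of 18917 genes measured in HEK293 cells with and without THUMPD1. All 60 had an entry, 59 under the symbol sought and 1, DUS2, under the older symbol DUS2L. QTRT2 also stands under its older symbol, QTRTD1. THUMPD1 is the adaptor that brings tRNA to the acetyltransferase NAT10 for formation of N4-acetylcytidine. The comparison asks how transcript levels of the other tRNA modification enzymes stood in cells that lack this adaptor.

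Total RNA depleted of ribosomal RNA was sequenced in 4 libraries, 2 from wild type (WT) cells and 2 from THUMPD1 knockout (KO) cells. HEK293 is a line of human embryonic kidney origin, and the methods of the study give the cells as HEK-293T. Both genotypes were grown in DMEM with serum and glutamine, with no other treatment named in the labels. The KO line was made with CRISPR-Cas9 and sorted to single cells, so the genotype and the clone cannot be told apart. The labels do not say whether the libraries of a genotype came from separate cultures, and p-values therefore measure the spread between these libraries, which may be technical.

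Libraries held 7875722 to 11362363 counts, and 3 counts, taken as the floor of detection, stood for 0.259 to 0.391 CPM, a count scaled to the size of its library. THUMPD1 had 356 and 468 counts in WT and 71 and 58 in KO, a log2 fold change of -2.93 (SE 0.17, adjusted p = 1.27e-12, edgeR). Of 13128 genes that passed a filter of at least 1 CPM in at least 2 libraries, 20.9% differed between the genotypes at an adjusted p under 0.05, with 8.79% higher and 12.1% lower in KO. The lower genes were unevenly placed, since 53.8% of tested genes on chromosomes 16 and 22 were lower against 9.12% on the other chromosomes. All 6 markers of the HEK293 line had counts in every library, and their summed level was 377 to 399.5 CPM in WT and at most 261 CPM in KO. Markers of fibroblasts, blood cells and HeLa-like epithelium summed to at most 25.0 CPM in any library for each type, and HBB was at 0 in all 4. NEFM was lower in KO (181 ± 5.50 CPM in WT, 24.7 ± 2.36 CPM in KO, SD, 2 libraries each), while NEFL was higher in KO (log2 fold change 0.34) and the other 4 did not pass the test.

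Modified nucleosides are placed on tRNA after transcription, each by an enzyme or a complex that reads a particular position. Those in the anticodon loop tune how codons are read, and those in the body of the molecule, such as the D-loop and T-loop, help it fold and resist decay. Many of these enzymes work as pairs of a catalytic subunit and a partner, and several have a paralog that acts in mitochondria. Levels of mRNA, as measured here, do not give the amount of enzyme or the amount of modification on tRNA.

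Transcripts of 10 of the 59 tested tRNA modification genes were lower in KO and none was higher. These were CTU1, PUS1, METTL1, CTU2, WDR4, TRMT2A, PUS7, NSUN2, TRMT6 and TRUB1. The share of 16.9% stands beside 12.1% of all genes tested, and 0 of 59 higher stands beside 8.79%. At an unadjusted p under 0.05 (edgeR), 16 of the 59 differed, and 1 of these was higher. Of all 13128 genes tested 4370 did so, and 2027 of these were higher. By adjusted p, DESeq2 also gave none higher, and limma-voom after quantile normalization gave 1. Scaling by library size alone, upper quartile scaling and a fit with replicate number as a block each gave 1 higher as well. Both KO libraries lay below both WT libraries for 26 genes (44.1%), where 30.0% of all genes tested did so, and above them for 12 (20.3%), where 30.4% of all genes did. Log2 fold changes ran from -0.97 to 0.36 with a median of -0.05, and the median of all genes tested was 0.01. The sign was negative for 33 genes and positive for 26, where it was negative for 6382 and positive for 6746 of all genes tested.

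**Figure D1:**
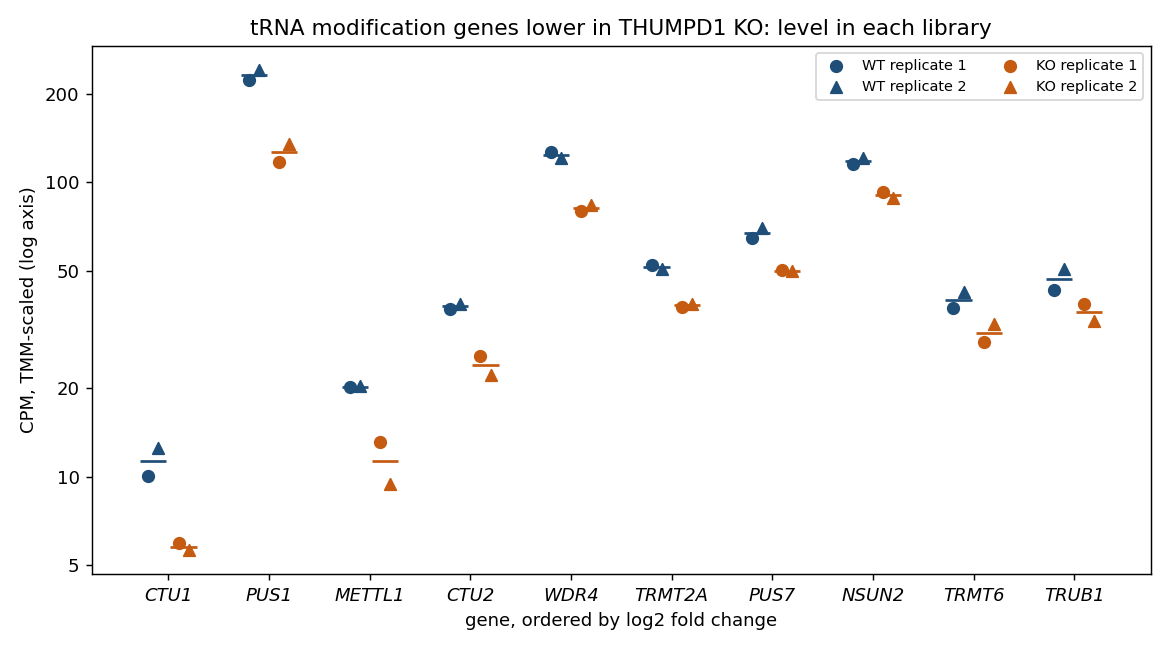
Level of each of the 10 tRNA modification genes lower in THUMPD1 KO, in CPM on a log axis, with 1 point for each of the 2 WT and 2 KO libraries and a short line at the mean of each genotype. For all 10 genes both KO points lie below both WT points, from PUS1 at 223 and 241 CPM in WT to CTU1 at 5.96 and 5.63 CPM in KO.

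The filter removed only ADAT3, which had 0 counts in all 4 libraries and is described with the deaminases. The other 59 genes had 22 counts or more in every library. Mean levels in WT ran from 2.94 CPM for PUS3 to 232 CPM for PUS1, with a median of 32.9 CPM. The lengths of the 95% intervals set what could be seen, and their half-widths on the log2 scale ran from 0.15 to 0.86 with a median of 0.27. Among the 29 genes with higher mean levels (33.5 to 179 CPM over all libraries) 7 were lower in KO, and the median half-width was 0.21. Among the 30 with lower levels (3.24 to 31.8 CPM) 3 were lower, with a median half-width of 0.35. Shares of all genes called at these levels were not taken, so the split is not particular to tRNA modification genes.

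Base methyltransferases, the largest set of roles, held 5 of the 10 lower genes. These were 1 of 4 5-methylcytosine enzymes (25.0%) and 4 of 13 others (30.8%), beside 12.1% of all genes tested. Whether these shares differ was not tested. METTL1 is the catalytic subunit and WDR4 the partner of the complex that makes 7-methylguanosine in the variable loop of tRNA. METTL1 stood at 20.2 and 20.3 CPM in WT and at 13.1 and 9.48 CPM in KO, a log2 fold change of -0.84 (SE 0.19, adjusted p = 0.00215). WDR4 stood at 127 and 121 CPM in WT and at 80.0 and 84.1 CPM in KO (log2 fold change -0.59, SE 0.08, adjusted p = 4.29e-06). Thus both subunits were lower in both KO libraries with no overlap. METTL1 overlaps CYP27B1 on the same strand, a gene with 2 and 9 counts in WT and 10 and 20 in KO. Scaled by the length of the canonical transcript, METTL1 stood at 14.7 and WDR4 at 58.9 CPM per kb in WT.

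TRMT6 and TRMT61A form the complex that makes 1-methyladenosine in the T-loop, with TRMT61A as the catalytic subunit. TRMT6 stood at 37.4 and 42.6 CPM in WT and at 28.8 and 33.0 CPM in KO (log2 fold change -0.38, SE 0.13, adjusted p = 0.0321). This call was lost without WT replicate 2 (adjusted p = 0.248), without KO replicate 1 (0.269), with DESeq2 (0.121) and with scaling by library size alone (0.0857). TRMT61A did not pass the test, at 19.4 and 19.4 CPM in WT and 15.2 and 16.2 CPM in KO (log2 fold change -0.30, adjusted p = 0.207). Both KO libraries lay below both WT libraries for each subunit, as they did for 30.0% of all genes tested.

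TRMT2A makes 5-methyluridine in the T-loop of cytosolic tRNA, and its paralog TRMT2B acts in mitochondria. TRMT2A stood at 52.3 and 50.9 CPM in WT and at 37.8 and 38.7 CPM in KO (log2 fold change -0.43, SE 0.11, adjusted p = 0.00562). TRMT2A lies on chromosome 22 and overlaps RANBP1 and DGCR8 on the opposite strand, which were also lower in KO (log2 fold changes -0.34 and -0.24). The study's methods name a stranded library kit for RNA-seq. Whether counting used the strand is not stated in the sources used here, so it is uncertain whether reads of these overlapping genes were kept apart. TRMT2B did not pass the test (log2 fold change -0.11, adjusted p = 0.404).

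NSUN2 makes 5-methylcytosine in many cytosolic tRNAs and was the only gene of its group of 4 past the threshold. It stood at 115 and 121 CPM in WT and at 92.7 and 88.7 CPM in KO (log2 fold change -0.38, SE 0.08, adjusted p = 0.000782). The others were NSUN3 (log2 fold change 0.26), which acts on the wobble cytosine of mitochondrial methionine tRNA, NSUN6 (0.07), which acts near the acceptor end, and TRDMT1 (0.24), which acts in the anticodon loop. Their adjusted p-values were at least 0.378. The difference between NSUN2 and these genes was not tested.

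The remaining base methyltransferases did not pass the test. They were TRMT1 (log2 fold change -0.22), the dimethylguanosine enzyme, its relative TRMT1L (0.04), TRMT5 (0.01), which makes 1-methylguanosine next to the anticodon, the mitochondrial paralog TRMT61B (0.36), TRMT10A (0.31), TRMT10B (0.12) and TRMT10C (-0.35), a subunit of mitochondrial RNase P. TRMT61B stood at 12.1 and 17.2 CPM in WT and at 21.3 and 16.7 CPM in KO, so the genotypes overlapped. None of the 3 ribose methyltransferases passed the test. TRMT13 (log2 fold change 0.10) and TRMT44 (-0.18) modify cytosolic tRNA, and FTSJ1 (-0.24, adjusted p = 0.0909) modifies the anticodon loop.

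Pseudouridine synthases, which rotate uridine into its C-glycoside isomer, held 3 lower genes of 7 (42.9%, beside 12.1% of all genes tested). PUS1, which acts on cytosolic and mitochondrial tRNA, was the most abundant of the 59 genes by count and the call with the smallest adjusted p. PUS1 had 1712 and 2650 counts in WT and 1364 and 1439 in KO, or 223 and 241 CPM in WT and 118 and 135 CPM in KO. Its log2 fold change was -0.88 (SE 0.07, adjusted p = 2.84e-09), which left 54.4% of the WT level. PUS7, which acts on tRNA and mRNA, stood at 64.6 and 69.8 CPM in WT and at 50.3 and 50.1 CPM in KO (log2 fold change -0.42, SE 0.10, adjusted p = 0.00266).

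TRUB1, the synthase of the T-loop pseudouridine of cytosolic tRNA, stood at 43.0 and 50.9 CPM in WT and at 38.8 and 33.9 CPM in KO (log2 fold change -0.38, SE 0.12, adjusted p = 0.0263). The TRUB1 call was lost without WT replicate 2 (adjusted p = 0.294), without KO replicate 2 (0.184), with DESeq2 (0.102) and with scaling by library size alone (0.0778). The other synthases did not pass the test, with log2 fold changes of 0.18 for PUS7L, 0.27 for PUS3, 0.21 for PUS10 and -0.11 for TRUB2, the mitochondrial paralog of TRUB1. PUS3 had the lowest counts of the 59 genes and an interval with a half-width of 0.86 on the log2 scale, the widest of the 59.

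Thiolation of the wobble uridine of cytosolic tRNA is carried out by CTU1 and CTU2 with sulfur handed on by URM1, which MOCS3 activates. CTU1, the catalytic subunit, had 77 and 138 counts in WT and 69 and 60 in KO, or 10.0 and 12.6 CPM in WT and 5.96 and 5.63 CPM in KO. Its log2 fold change of -0.97 (SE 0.25, adjusted p = 0.00664) was the lowest of the 59 genes. Without WT replicate 2 the CTU1 call was lost (log2 fold change -0.79, adjusted p = 0.0811). CTU2, its partner, stood at 37.3 and 38.7 CPM in WT and at 25.7 and 22.3 CPM in KO (log2 fold change -0.66, SE 0.13, adjusted p = 0.000654). CTU2 lies on chromosome 16 and overlaps PIEZO1 on the opposite strand, which was also lower in KO (log2 fold change -0.41, adjusted p = 0.000402). URM1 (log2 fold change -0.15) and MOCS3 (0.30) did not pass the test.

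Elongator, the complex that starts the carboxymethyl side chains of the same wobble uridine, had none of the 5 subunits reported here past the threshold. The catalytic subunit ELP3 had a log2 fold change of -0.08, and ELP2, ELP4, ELP5 and ELP6 had 0.04, 0.34, -0.08 and -0.02. ALKBH8, which completes the side chain made by Elongator (log2 fold change -0.18), and ALKBH1 (0.14), a demethylase of tRNA, did not pass the test.

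**Figure D2:**
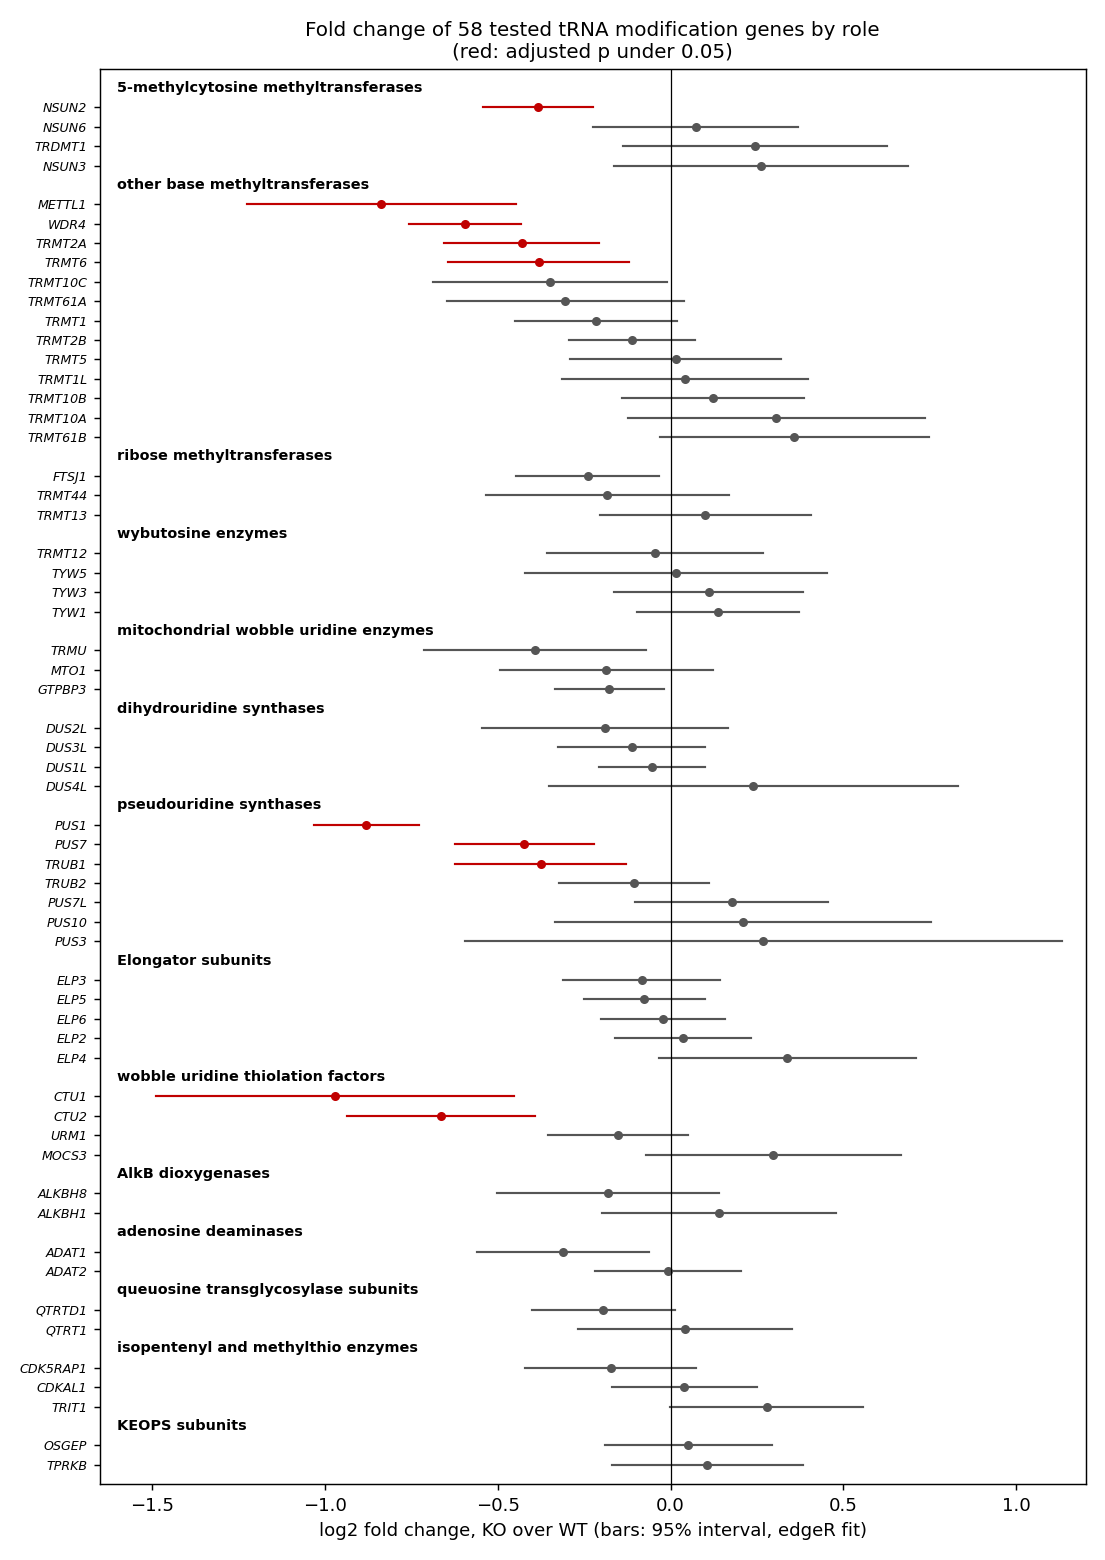
Log2 fold change of KO over WT with its 95% interval for 58 of the 59 tested tRNA modification genes, grouped by role, with genes at an adjusted p under 0.05 in red. The 10 red points all lie below 0, from -0.97 for CTU1 to -0.38, and they belong to the base methyltransferases, the pseudouridine synthases and the thiolation factors.

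The mitochondrial wobble uridine is modified by MTO1 and GTPBP3, which add the taurinomethyl group, and by TRMU, which adds sulfur. None of the 3 passed the test. In each both KO libraries lay below both WT libraries, as they did for 30.0% of all genes tested. The log2 fold changes were -0.19 for MTO1, -0.18 for GTPBP3 and -0.39 for TRMU. MTO1 overlaps EEF1A1 on the opposite strand, a gene with 18270 and 25193 counts in WT and 34656 and 30305 in KO (log2 fold change 0.32). The value of MTO1 is therefore uncertain where counting did not use the strand. TRMU, on chromosome 22, stood at 29.2 and 32.3 CPM in WT and at 19.4 and 27.8 CPM in KO (adjusted p = 0.0746).

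Adenosine deaminases make inosine, at the wobble position by ADAT2 with ADAT3 and next to the anticodon of alanine tRNA by ADAT1. ADAT1, on chromosome 16, stood at 45.6 and 40.1 CPM in WT and at 32.8 and 36.1 CPM in KO (log2 fold change -0.31, adjusted p = 0.0677). ADAT2 stood near 0 (log2 fold change -0.01, adjusted p = 0.970). ADAT3 had 0 counts in all 4 libraries, which allows a level of up to 0.391 CPM in the shallowest of them. In GENCODE 44 the body of ADAT3 lies within SCAMP4 on the same strand, and SCAMP4 had 1182 and 1601 counts in WT and 1130 and 1097 in KO. How reads of such nested genes were assigned is not stated, so the level of ADAT3 is uncertain.

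The other roles held no gene past the threshold. Dihydrouridine synthases, which reduce uridine in the D-loop and elsewhere, had log2 fold changes of -0.05 for DUS1L, -0.19 for DUS2L, -0.11 for DUS3L and 0.24 for DUS4L. DUS2L, on chromosome 16, stood at 16.8 and 19.4 CPM in WT and at 15.0 and 16.9 CPM in KO (adjusted p = 0.471). It overlaps DDX28 on the opposite strand (112 and 167 counts in WT, 134 and 109 in KO), with the same limit as for TRMT2A. The wybutosine enzymes, which build the bulky base next to the anticodon of phenylalanine tRNA, had -0.04 for TRMT12, 0.14 for TYW1, 0.11 for TYW3 and 0.01 for TYW5. Reads of TYW1 may be shared with its near-identical copy TYW1B, so its value is uncertain.

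QTRT1, the catalytic subunit that inserts queuosine precursors at the wobble position (log2 fold change 0.04), and its partner QTRTD1 (-0.19) did not pass the test. Of the enzymes that decorate the adenosine next to the anticodon, TRIT1, which adds the isopentenyl group, had a log2 fold change of 0.28. The methylthio enzymes CDK5RAP1 and CDKAL1 had -0.17 and 0.04. OSGEP and TPRKB, subunits of the KEOPS complex that makes threonylcarbamoyladenosine, had 0.05 and 0.11. Adjusted p-values of these 7 genes were at least 0.151.

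Fold changes were also read beside the median of all tested genes on the same chromosome, because chromosomes 16 and 22 had medians of -0.44 and -0.42 while those of the other 21 chromosomes, Y left out, ran from -0.06 to 0.10. The 5 tested tRNA modification genes on chromosomes 16 and 22 all had a log2 fold change below 0, and 2 of 5 were called lower, where 53.8% of all genes tested there were. CTU2 differed from the median of chromosome 16 by -0.22, with 135 of the 576 genes tested there lower still. ADAT1 and DUS2L, on the same chromosome, lay above its median by 0.13 and 0.25. TRMT2A differed from the median of chromosome 22 by -0.01 and TRMU by 0.02, and 152 of the 311 genes tested there had lower values than TRMT2A.

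On the other chromosomes 8 of 54 tRNA modification genes were lower in KO (14.8%), where 9.12% of all genes placed there were, and the median was -0.01. CTU1 differed from the median of chromosome 19 by -0.92, and 20 of 929 genes there were lower still. PUS1 and METTL1, both on chromosome 12, differed from its median by -0.89 and -0.85, and 19 and 20 of 698 genes were lower still. WDR4 ranked low on chromosome 21, with 7 of 119 genes lower. NSUN2, PUS7, TRMT6 and TRUB1 differed from their chromosomes' medians by -0.45, -0.45, -0.39 and -0.43.

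**Figure D3:**
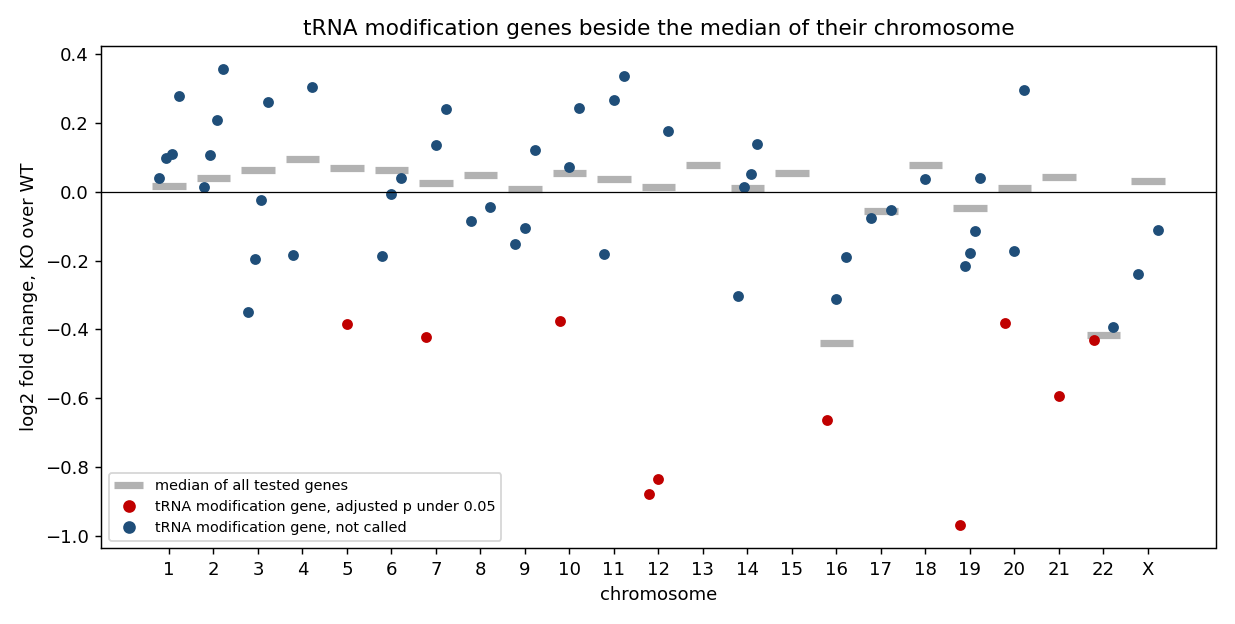
Log2 fold change of KO over WT for 58 of the 59 tested tRNA modification genes, placed by chromosome, with the median of all tested genes of each chromosome as a bar. The bars of chromosomes 16 and 22 lie at -0.44 and -0.42, near TRMT2A at -0.43, whereas CTU1, PUS1, METTL1 and WDR4 lie well below bars that are near 0.

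Count ratios within a library need no scaling between libraries, and were taken for 9 pairs of paralogs or complex partners that were chosen after their values were seen. They are given with no test, and a pair chosen for a lower gene is not independent of that gene's call. In each pair of paralogs the gene with the lower fold change was put first, so a lower ratio in KO follows from that order. The ratio of PUS7 to its paralog PUS7L was 2.32 and 2.72 in WT and 1.61 and 1.73 in KO. The ratio of TRMT61A to TRMT61B was also lower in KO (1.60 and 1.13 in WT, 0.713 and 0.972 in KO), though neither gene was called. Count ratios are not scaled by transcript length. Per kb of the canonical transcript, TRMT61B stood above TRMT61A in both genotypes (7.95 against 6.03 CPM in WT, 10.3 against 4.89 CPM in KO). Ratios of TRMT2A to TRMT2B (0.689 and 0.680 in WT, 0.548 and 0.549 in KO) and of TRUB1 to TRUB2 (0.829 and 0.921 in WT, 0.733 and 0.725 in KO) were likewise lower in KO with no overlap.

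Among partners of a complex 3 of 5 ratios overlapped between the genotypes. The ratio of METTL1 to WDR4 was 0.159 and 0.168 in WT and 0.164 and 0.113 in KO. Ratios of TRMT6 to TRMT61A (1.93 and 2.20 in WT, 1.89 and 2.03 in KO) and of MTO1 to GTPBP3 (0.175 and 0.177 in WT, 0.185 and 0.166 in KO) overlapped as well. The ratio of CTU1 to CTU2 was lower in KO (0.269 and 0.325 in WT, 0.232 and 0.253 in KO). That of QTRT1 to QTRTD1 was higher (0.357 and 0.337 in WT, 0.412 and 0.403 in KO).

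Promoters were read from 250 bases before to 50 bases after the start of transcription, in RefSeq on GRCh38.p14, where 46 of the 60 genes had a window. These included 6 of the 10 lower genes. Windows were searched on both strands for CACGTG, the E-box bound by basic helix-loop-helix factors such as MYC, and for TGACGTCA, the cyclic AMP response element. Both motifs are palindromes, so each match stands on both strands, and both were chosen after earlier results were known. The 4 windows shown hold a match for 3 lower genes and for TRMT61A, the partner of TRMT6, each written 5′ to 3′ on the strand of the gene with the matched motif in capitals. TRMT6 lies at chr20:5950484-5950783 on the minus strand, TRMT61A at chr14:103528946-103529245 on the plus strand, PUS7 at chr7:105522222-105522521 on the minus strand and CTU2 at chr16:88706253-88706552 on the plus strand.
TRMT6: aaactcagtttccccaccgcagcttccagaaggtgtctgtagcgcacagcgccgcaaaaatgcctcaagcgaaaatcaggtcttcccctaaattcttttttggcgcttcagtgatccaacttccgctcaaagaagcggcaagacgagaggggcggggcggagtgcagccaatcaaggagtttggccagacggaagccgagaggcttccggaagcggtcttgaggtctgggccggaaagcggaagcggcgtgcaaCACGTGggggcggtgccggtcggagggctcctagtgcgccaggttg
TRMT61A: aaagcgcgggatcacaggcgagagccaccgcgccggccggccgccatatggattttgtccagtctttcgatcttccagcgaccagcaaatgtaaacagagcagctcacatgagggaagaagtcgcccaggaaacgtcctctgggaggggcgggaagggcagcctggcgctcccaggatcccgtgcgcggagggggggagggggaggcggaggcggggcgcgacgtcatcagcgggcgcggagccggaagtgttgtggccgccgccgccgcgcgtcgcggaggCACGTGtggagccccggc
PUS7: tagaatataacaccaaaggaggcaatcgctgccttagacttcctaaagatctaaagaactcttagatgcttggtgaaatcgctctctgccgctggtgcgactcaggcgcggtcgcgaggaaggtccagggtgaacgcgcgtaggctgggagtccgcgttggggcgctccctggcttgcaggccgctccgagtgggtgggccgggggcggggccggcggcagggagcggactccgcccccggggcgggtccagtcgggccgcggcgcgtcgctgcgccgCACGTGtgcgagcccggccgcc
CTU2: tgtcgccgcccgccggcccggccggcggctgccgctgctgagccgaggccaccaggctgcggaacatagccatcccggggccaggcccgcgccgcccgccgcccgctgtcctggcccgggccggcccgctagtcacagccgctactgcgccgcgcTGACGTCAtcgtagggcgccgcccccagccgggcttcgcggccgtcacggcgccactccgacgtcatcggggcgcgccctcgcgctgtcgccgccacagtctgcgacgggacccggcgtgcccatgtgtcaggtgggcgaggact

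The E-box stood in windows of TRMT6 and PUS7, both lower in KO, and of TRMT61A, QTRT1 and TRUB2, not called. It was found in 2 of 6 windows of the lower tRNA modification genes and in 3 of 55 windows of those not lower. Over all 34796 windows 7.20% held it, with 13.4% among genes lower in KO, 6.93% among genes higher in KO and 8.77% among tested genes not called. The cyclic AMP response element stood in the window of CTU2, in 1 of 6 windows of the lower genes. Among the others 5 of 55 windows held it, from 4 genes: TRMT44, DUS2L, ADAT1 and ELP5, whose windows overlap. The element stood in 1.84% of all windows. Its share was 3.29% among genes lower in KO, 3.76% among genes higher and 2.53% among tested genes not called. Of the genes with a match that were not called, only the window of TRMT61A is shown. These are matches of letters, and binding was not measured.

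Other genes of tRNA modification and of related enzyme families, including the THUMP proteins and NAT10, were counted from a list of 33, of which 32 were tested. Whether each acts on tRNA was not checked, and RPUSD1, RPUSD2 and RPUSD3 were listed by their family, the pseudouridine synthases. KTI12 had 0 counts in every library and lies within TXNDC12 on the same strand. Transcripts of 6 were lower in KO (18.8%, against 12.1% of all genes tested) and 2 were higher (6.25%, against 8.79%). Without THUMPD1, the targeted gene, 5 of 31 were lower (16.1%) and the median log2 fold change was -0.05. Beside THUMPD1 itself, RPUSD1, a pseudouridine synthase gene on chromosome 16, stood at 28.7 and 26.4 CPM in WT and at 15.0 and 15.5 CPM in KO (log2 fold change -0.85, adjusted p = 0.000263). RPUSD2, of the same family, stood at 19.8 and 20.1 CPM in WT and at 13.7 and 10.6 CPM in KO (log2 fold change -0.71, adjusted p = 0.00616).

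RPUSD3 stood at 109.5 and 121 CPM in WT and at 89.4 and 101 CPM in KO (log2 fold change -0.28, adjusted p = 0.0153). LAGE3, a KEOPS subunit, stood at 76.0 and 87.9 CPM in WT and at 63.1 and 72.8 CPM in KO (log2 fold change -0.28, adjusted p = 0.0404). WDR6, the partner of FTSJ1, stood at 207 and 224 CPM in WT and at 177 and 196 CPM in KO (log2 fold change -0.21, adjusted p = 0.0307). For each of these both KO libraries lay below both WT libraries. The higher genes were TARBP1, a ribose methyltransferase gene at 85.3 and 102 CPM in WT and 128 and 112 CPM in KO (log2 fold change 0.36, adjusted p = 0.00457), and ALKBH3, a demethylase gene at 16.8 and 13.4 CPM in WT and 23.6 and 18.8 CPM in KO (0.50, adjusted p = 0.0440). NAT10 did not pass the test (log2 fold change -0.15, adjusted p = 0.160). Of the 8 calls, 4 were made without WT replicate 2 and 3 without KO replicate 1, where only RPUSD1, RPUSD2 and THUMPD1 passed. RPUSD2 was not called without KO replicate 2.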

How the data were processed

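RNA was sequenced from 2 WT and 2 THUMPD1 KO libraries, and groups were taken from the sample labels. The file the authors deposited holds unnormalized read counts, 1 whole number for each gene symbol and library. The submitters' processing notes name hg19. The study's methods name STAR and RSEM on GRCh38 for RNA-seq with 3 samples per genotype, and whether the 2 per genotype analysed here are among them is not stated. Which pipeline made the counts, and whether it used the strand, is not stated in the sources used here. Values of genes that overlap another on the opposite strand are uncertain for this reason, also where the overlap is not named. A table of the authors' own comparison (fold changes and p-values) was not used.

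The fit used edgeR 4.0.16 in R 4.3.3 (TMM scaling and the quasi-likelihood F test) and took in the 13128 genes that reached 1 CPM in 2 libraries or more. P-values were adjusted over all of them by the Benjamini-Hochberg method, with a threshold of 0.05. CPM use TMM-scaled library sizes, except the summed levels of cell type markers, which use total counts. SE is that of the log2 fold change. With 2 libraries per genotype, an exact permutation test of a single gene cannot give a two-sided p below 0.333, so none was run. The genes, lists and pairs were chosen with earlier results of these data known. Values per library are given for every tRNA modification gene with an adjusted p under 0.05, and among the 60 for every one on chromosomes 16 and 22 and every one under 10 counts in a library, and the others are given by fold change. Intervals of fold changes come from the fit and include the spread between libraries. Counts carry no molecular identifiers, and floors cover counting error only. Overlaps and lengths came from GENCODE 44, and chromosomes came from RefSeq by gene symbol or synonym. Alternatives were run with limma 3.58.1 (voom) and DESeq2 1.42.0. The code was tested on simulated data. Values of 1 tested gene are not reported here, though counts and medians over the 59 genes include it.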

Additional observations from a re-analysis of the deposited data

How the results depend on the processing

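The number of tRNA modification genes called, 10, stood between 8 and 13 under the alternatives tried, and CTU2, METTL1, NSUN2, PUS1, PUS7, TRMT2A and WDR4 were called lower in every one. Of all genes, 2748 were called, against 1764 with DESeq2, 1594 at an adjusted p under 0.01 and 1617 to 2599 when 1 library was left out, the lowest without KO replicate 1. With library size alone 2081 genes were higher and 1158 lower, where TMM scaling gave 1154 and 1594. Of the other tRNA modification genes 8 were called, against 4 with DESeq2, 5 with limma-voom and quantile normalization, 4 at an adjusted p under 0.01 and 3 to 9 with 1 library left out.

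The median log2 fold change of the tRNA modification genes was -0.05, beside 0.01 for all genes tested. It became 0.031 with library size alone (all genes 0.09) and -0.029 with upper quartile scaling (all genes 0.035). With limma-voom it was -0.030 (all genes 0.028), and with TMM scaling set without chromosomes 16 and 22 it was -0.075 (all genes -0.011). With 1 library left out it ran from -0.094 to -0.034, where the median of all genes ran from 0.0067 to 0.0087. Leaving out a library also gained calls, which were TRMU and TYW3 (higher) without WT replicate 1, ADAT1, FTSJ1 and TRMT61B (higher) without WT replicate 2, and FTSJ1, GTPBP3 and TRMU without KO replicate 2. TRMU was called with no filter beyond 1 count and ADAT1 with TMM scaling set without chromosomes 16 and 22.

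Replicate numbers are shared between the genotypes, but same-numbered libraries did not deviate together (r = 0.03 across genes), so the numbers were not taken as pairs. With the replicate block 3222 genes and 13 tRNA modification genes were called, ADAT1 and TRMU being among those gained, with 8 of the other list, and THUMPD1 at -2.94.

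Some genes near 0, none of them called, changed sign. With library size alone TRMT12 became 0.040, DUS1L 0.031, ELP3 0.00093, ELP5 0.0078, ELP6 0.063 and ADAT2 0.078. With upper quartile scaling ELP6 became 0.0032 and ADAT2 0.018, and with limma-voom DUS1L became 0.0021, ELP6 0.031 and ADAT2 0.035. With TMM scaling set without chromosomes 16 and 22 TRMT5 became -0.0059 and TYW5 -0.0061, and TYW5 was -0.0026 with the replicate block. With 1 library left out, ranges that crossed 0 were -0.15 to 0.31 for NSUN6, -0.13 to 0.19 for TRMT1L, -0.075 to 0.11 for TRMT5, -0.15 to 0.052 for TRMT12, -0.14 to 0.38 for TYW3, -0.20 to 0.22 for TYW5, -0.29 to 0.055 for DUS3L, -0.061 to 0.13 for ELP2, -0.23 to 0.056 for ELP3, -0.10 to 0.052 for ELP6, -0.078 to 0.058 for ADAT2, -0.011 to 0.10 for QTRT1, -0.073 to 0.15 for CDKAL1 and -0.13 to 0.21 for OSGEP. For TYW3, called higher without WT replicate 1, the sign was negative without WT replicate 2. The cause of these changes was not tested. A fit with 1 library of a genotype takes the lone library to vary like the others.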
